A study of Homo sapiens with 9 samples.

Results

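The 9 genes described here make up much of the HLA class I antigen presentation machinery: HLA-B, HLA-C, HLA-E, HLA-F, B2M, TAP1, TAP2, TAPBP and NLRC5. They were taken by name, with earlier results of these data already known. All 9 of 9 were found among the 62666 genes of the table and passed the filter on low counts, which left 17910 genes. Polyadenylated RNA was sequenced from 3 human mammary epithelial lines with 3 libraries each. MCF10A is a non-tumorigenic line, MCF10AT1 is a derivative of it that carries an activated HRAS gene, and MCF10Ca1a is a tumour-forming line from the same series, so all 3 share a single origin. No line received a treatment. All were grown in DMEM/F12 with insulin, epidermal growth factor (20 ng/mL), hydrocortisone and cholera toxin. Horse serum was 5% for MCF10A and MCF10Ca1a and 2.5% for MCF10AT1, so line and serum cannot be told apart in any comparison with MCF10AT1. The labels do not say whether the libraries of a line came from separate cultures, so the p-values measure only the spread between these libraries.

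Class I molecules carry peptides from inside the cell to its surface, where CD8+ T cells read them. A heavy chain, encoded by an HLA gene, pairs with the light chain beta-2-microglobulin, the product of B2M. Peptides cut by the proteasome are pumped into the endoplasmic reticulum by the transporter formed by TAP1 and TAP2, and tapasin, the product of TAPBP, holds the empty heavy chain beside that transporter while peptides are exchanged. NLRC5 is a transactivator that acts at class I promoters together with the RFX complex. HLA-B and HLA-C are classical heavy chains, HLA-E presents leader peptides of other heavy chains to natural killer cell receptors, and HLA-F is a non-classical heavy chain of limited expression.

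Library totals ran from 32930503 to 69508842 counts and were lower in MCF10Ca1a than in the other lines. Epithelial markers summed to 4787 to 5853 CPM (counts scaled to a common library size with TMM factors) in MCF10A and 7053 to 7668 in the derived lines. Of the 10, 7 rose and 2 fell in MCF10AT1 against MCF10A, 8 rose and 2 fell in MCF10Ca1a, and none was at 3 counts or fewer in every library. Of 10 leukocyte markers, 6 were at 0 to 3 counts in all 9 libraries (among them PTPRC, CD3E, CD2, NKG7 and MS4A1), as were 5 of 8 endothelial markers (CDH5, VWF, CLDN5, ERG and EMCN) and 2 of 8 fibroblast markers (COL1A2 and COL3A1). The summed leukocyte list nevertheless moved with the class I genes, at 27.6 to 34.6 CPM in MCF10A, 9.14 to 10.0 in MCF10AT1 and 41.2 to 45.6 in MCF10Ca1a. In that sum CD68, a lysosomal glycoprotein, averaged 14.8, 4.04 and 41.9 CPM, and CD14 9.16, 4.40 and 0.208. The endothelial sum was 3.65 to 4.83 CPM in MCF10A and MCF10AT1 and 42.2 to 49.6 in MCF10Ca1a, where PECAM1 averaged 45.4. The fibroblast sum was 77.7 to 83.0 CPM in MCF10A and MCF10AT1 and 29.2 to 30.0 in MCF10Ca1a, while in MCF10AT1 against MCF10A DCN rose by 2.79 and COL1A1 fell by 1.47 on the log2 scale. The part of these markers in the results was not tested. In bulk RNA, fewer cells of a type and less RNA per cell cannot be told apart.

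Against MCF10A, the class I genes were lower or no different in MCF10AT1 and mostly higher in MCF10Ca1a. In MCF10AT1, 7 of the 9 fell, 0 rose and 2 (HLA-E and TAP1) did not pass the test, by edgeR (quasi-likelihood F test, p adjusted over all genes tested, threshold 0.05). The same test called 61.6% of all genes in this comparison, 29.8% higher and 31.8% lower. In MCF10Ca1a, 7 rose, HLA-F fell and B2M did not pass, against 80.9% of all genes called, 39.0% higher and 41.9% lower. Between the derived lines, 8 were higher in MCF10Ca1a and 0 lower, with B2M again not passing, against 78.4% of all genes called, 38.0% higher and 40.3% lower. The median log2 fold change of the 9 genes was -0.57, 0.44 and 1.01 in these comparisons, beside -0.004, -0.05 and -0.04 over all genes tested. The 3 comparisons share libraries, so their values are given side by side and are not independent of each other.

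**Figure D1:**
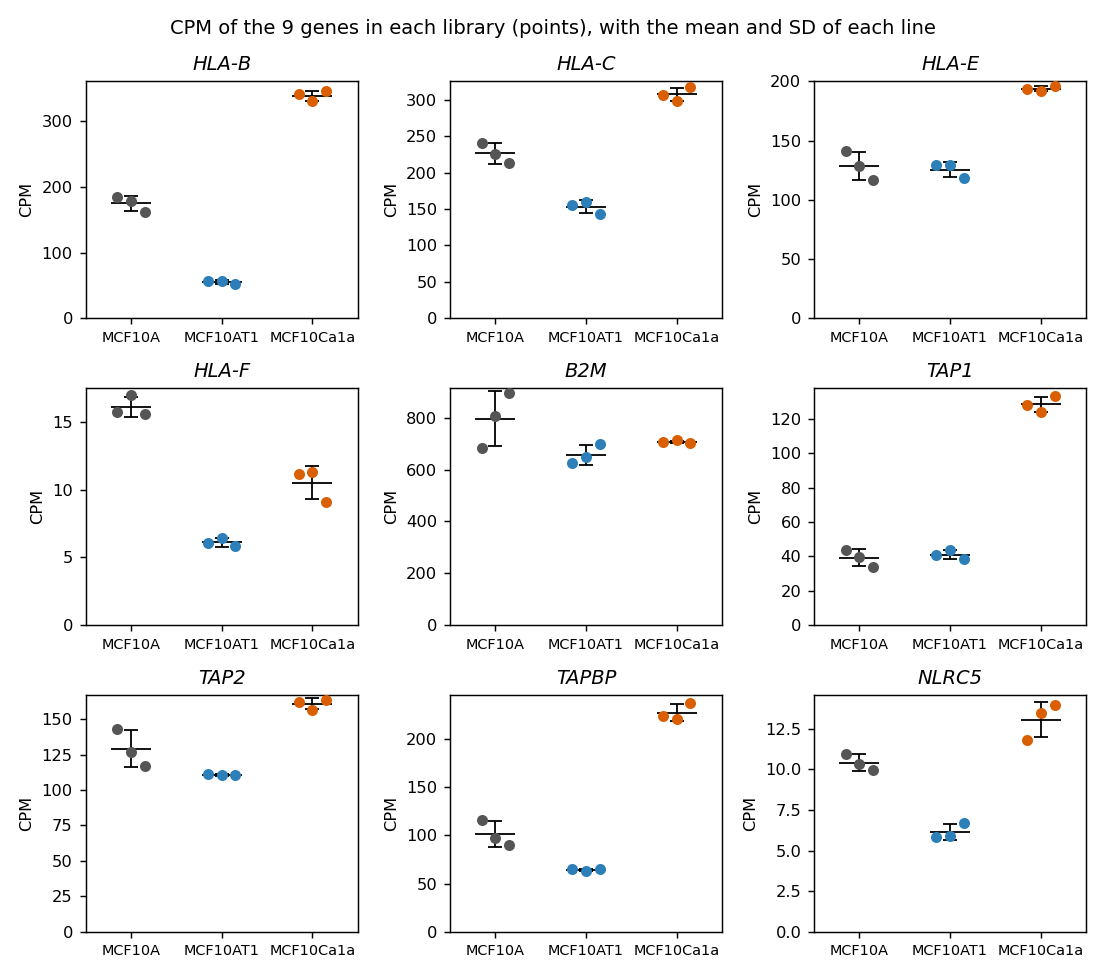
CPM (y axis, from 0) of each of the 9 genes in every library, grouped by line on the x axis; points are libraries and bars are the mean and SD of 3. The 3 MCF10AT1 points lie under all other points for 6 genes, and the 3 MCF10Ca1a points lie over all others for 7.

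All 3 MCF10AT1 libraries were under the other 6 for 6 of the 9 genes (HLA-B, HLA-C, HLA-F, TAP2, TAPBP and NLRC5), a pattern held by 13.7% of all genes tested. All 3 MCF10Ca1a libraries were over the other 6 for 7 of the 9 (all but HLA-F and B2M), which 32.0% of genes tested did. CPM did not overlap between MCF10AT1 and MCF10A for 6 genes, between MCF10Ca1a and MCF10A for 8, and between the derived lines for 9. The shares of all genes that did not overlap were 65.4%, 81.5% and 81.9%, so the number of genes that differed is close to the background and the 2 one-sided patterns are further from it. These counts are descriptions, with no test of the list.

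The promoters are shown here because several of the genes moved in the same direction and because class I promoters are known for a shared module. RefSeq promoter windows (GRCh38.p14) were present for 7 of the 9 genes. Each window was searched over the 250 bases before the RefSeq start, which can differ from the GENCODE 29 start. The stretch with the matches lies in an exon that GENCODE 29 annotates on the same strand for 4 genes (HLA-F, TAP1, TAP2 and TAPBP), so those are not printed. The stretches of HLA-B, HLA-C and B2M lie in no such exon and are printed 5′ to 3′ on the gene's strand. Capitals mark matches to motifs chosen after the sequences were seen: the Y element GCCAATCAG, bound by NF-Y, the X2 element TGACGC, the kappaB site, and 2 spacings of the interferon element, GAANNGAAA and GAAANNGAA, on either strand.
HLA-B, chr6:31357223-31357361, minus strand: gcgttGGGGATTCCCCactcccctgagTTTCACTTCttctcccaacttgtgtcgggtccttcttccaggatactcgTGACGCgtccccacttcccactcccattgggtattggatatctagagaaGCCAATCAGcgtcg
HLA-C, chr6:31272136-31272269, minus strand: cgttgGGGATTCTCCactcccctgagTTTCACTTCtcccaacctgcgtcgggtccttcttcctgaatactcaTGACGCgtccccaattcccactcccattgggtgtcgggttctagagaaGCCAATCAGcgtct
B2M, chr15:44711368-44711478, plus strand: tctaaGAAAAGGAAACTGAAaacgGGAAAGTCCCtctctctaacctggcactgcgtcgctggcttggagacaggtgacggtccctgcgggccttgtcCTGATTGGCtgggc
The Y element was found in HLA-B, HLA-C, HLA-F and B2M, and in 1.83% of 35116 promoters of the same length. The X2 element was found in HLA-B, HLA-C and TAP2 (7.67% of promoters), and the kappaB site in HLA-B, HLA-C, B2M, TAP1 and TAPBP (5.21%), with the matches in HLA-B overlapping each other. The shorter interferon spacing was found in HLA-B, HLA-C and TAP2 (6.56%) and the longer one in B2M, HLA-F, TAP1, TAP2 and TAPBP (6.88%). Several of the longer matches overlap each other, and in TAP2 the 2 spacings overlap. Over the 250 upstream bases, 91.9% of the aligned bases were identical between HLA-B and HLA-C, 83.7% between HLA-B and HLA-F and 83.9% between HLA-C and HLA-F. A match describes letters in this window and no binding.

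HLA-B had the largest changes of the 9 genes in MCF10AT1 against MCF10A and between the derived lines, while TAP1 and TAPBP changed more in MCF10Ca1a against MCF10A. Its level was 185, 178 and 162 CPM in the MCF10A libraries, 56.6, 56.3 and 51.7 in MCF10AT1, and 341, 331 and 345 in MCF10Ca1a. The lines did not overlap at any point, with MCF10AT1 low and MCF10Ca1a high. It was 3.19-fold lower in MCF10AT1 than in MCF10A (log2 fold change -1.67 ± 0.06 SE, edgeR adjusted p = 4.76e-11), and 1.94-fold higher in MCF10Ca1a than in MCF10A (0.95 ± 0.06, adjusted p = 2.91e-09). Between the derived lines the difference was 6.18-fold (2.63 ± 0.06, adjusted p = 3.44e-13).

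HLA-C, its closest relative by promoter sequence here, moved in the same directions by less. It was at 241, 226 and 213 CPM in MCF10A, 156, 160 and 143 in MCF10AT1, compared with 307, 299 and 317 in MCF10Ca1a, again with no overlap between lines. The log2 fold changes were -0.57 ± 0.06 SE in MCF10AT1, 0.44 ± 0.06 in MCF10Ca1a against MCF10A, and 1.01 ± 0.06 between the derived lines.

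The non-classical heavy chains each departed from this order in a different way. HLA-E stood at 141, 129 and 117 CPM in MCF10A and at 129, 129 and 118.0 in MCF10AT1, so those lines overlapped, and at 194, 191 and 196 in MCF10Ca1a. Its difference between MCF10AT1 and MCF10A was -0.04 ± 0.07 on the log2 scale (edgeR adjusted p = 0.644), and the sign turned when MCF10A replicate 1 (0.03) or MCF10AT1 replicate 3 (0.0066) was left out. It was 1.51-fold higher in MCF10Ca1a than in MCF10A.
HLA-F was highest in MCF10A, with 15.8, 17.0 and 15.6 CPM there, 6.06, 6.46 and 5.83 in MCF10AT1, compared with 11.2, 11.3 and 9.11 in MCF10Ca1a. It alone of the 9 fell in both derived lines by this test, 2.64-fold in MCF10AT1 (log2 fold change -1.40 ± 0.08 SE) and 1.53-fold in MCF10Ca1a (-0.62 ± 0.08, edgeR adjusted p = 1.07e-05). On log2(TPM + 1) the latter was -0.39 and still passed. In GENCODE 29, HLA-F overlaps an antisense gene and HLA-B and HLA-C overlap on the same strand, and estimated counts of HLA genes were often fractional, so reads of near-identical heavy chain sequence could have been split between them. The HLA levels come from quantification on hg38, and whether the lines' own alleles differ from the reference ones was not tested.

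B2M, the light chain of every class I molecule, was the most abundant of the 9 and had the smallest SD of log2 CPM over all 9 libraries (0.16). That SD spans the lines, and within MCF10A alone B2M was at 796 ± 106 CPM (SD, n = 3). Its CPM values were 685, 807 and 896 in MCF10A, 624, 649 and 697 in MCF10AT1, compared with 706, 713 and 703 in MCF10Ca1a, with MCF10A overlapping both other lines and the derived lines apart from each other. The fall in MCF10AT1 was 1.21-fold (log2 fold change -0.28 ± 0.08 SE, edgeR adjusted p = 0.0106) and was lost without MCF10AT1 replicate 1 (-0.24, adjusted p = 0.0544) or with only the 2 lines in the fit (adjusted p = 0.0526). In MCF10Ca1a the difference from MCF10A was -0.17 ± 0.08 (adjusted p = 0.0733), and it passed without MCF10A replicate 1 (-0.28, adjusted p = 0.000341), with no filter on low counts (adjusted p = 0.00144) or on length-scaled counts (adjusted p = 0.0329). It was smaller without MCF10A replicate 3 (-0.092) and on log2(TPM + 1) (-0.046). Between the derived lines it was 0.11 ± 0.08 (edgeR adjusted p = 0.257), and passed with only those lines in the fit (0.12, adjusted p = 0.0196). It was 0.055 without MCF10AT1 replicate 1 and 0.017 with no filter on low counts (adjusted p = 0.889). On log2(TPM + 1) the difference between the derived lines was 0.36 and passed by limma (adjusted p = 0.000464), where the median of all genes was 0.13.

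**Figure D2:**
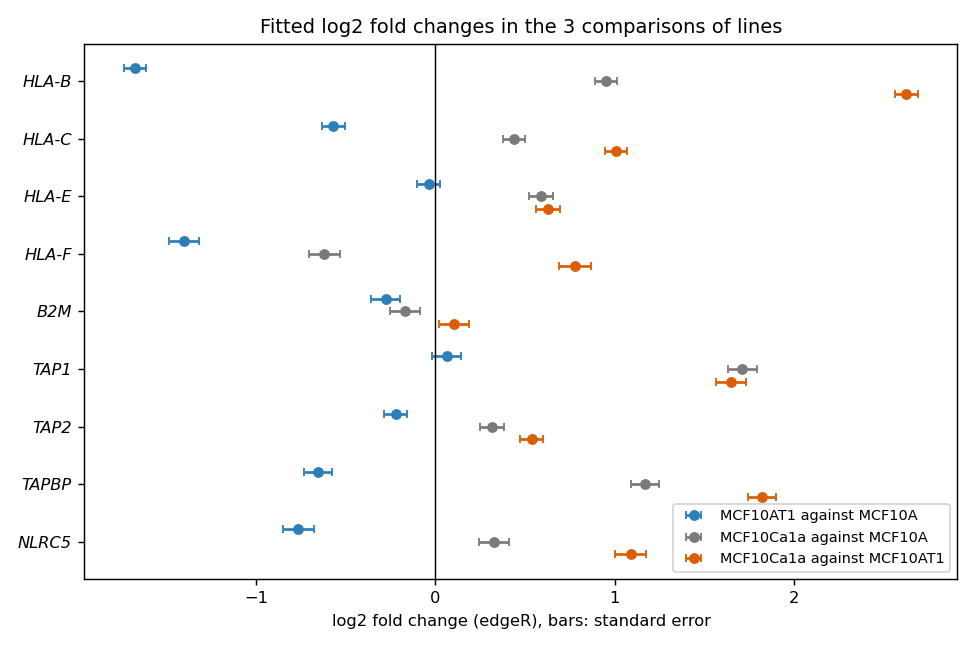
Log2 fold changes (x axis) of the 9 genes in the 3 comparisons of lines, fitted by edgeR, with bars for the standard error. HLA-B spans the widest range, from -1.67 to 2.63, and the 3 values of B2M lie between -0.28 and 0.11.

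The transporter subunits did not move alike. TAP1 stood at 43.9, 39.8 and 33.9 CPM in MCF10A, 40.7, 43.8 and 38.3 in MCF10AT1, compared with 128, 124 and 133 in MCF10Ca1a. MCF10A and MCF10AT1 overlapped (log2 fold change 0.06 ± 0.08 SE, edgeR adjusted p = 0.524, with the opposite sign on log2(TPM + 1), -0.05), and MCF10Ca1a was 3.28-fold over MCF10A. TAP2 was at 143, 127 and 117 CPM in MCF10A, 112, 110 and 110 in MCF10AT1, compared with 162, 157 and 164 in MCF10Ca1a, with no overlap between lines. Its log2 fold changes against MCF10A were -0.22 ± 0.06 SE in MCF10AT1 and 0.32 ± 0.07 in MCF10Ca1a. The first was -0.14 without MCF10A replicate 1, and its call was lost by limma on log2(TPM + 1) with no filter (-0.32, adjusted p = 0.0649). The level of TAP2 per TAP1, both in TPM (a scale corrected for transcript length), was 1.74 ± 0.07 (SD, n = 3) in MCF10A, 1.43 ± 0.09 in MCF10AT1 and 0.618 ± 0.009 in MCF10Ca1a, so that the subunit with more RNA was TAP2 in the first 2 lines and TAP1 in MCF10Ca1a. TAP1 overlaps PSMB9 on the opposite strand and TAP2 overlaps another annotated gene on the same strand.

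TAPBP, which encodes tapasin, had 116, 96.9 and 90.4 CPM in MCF10A, 64.8, 63.2 and 64.7 in MCF10AT1, compared with 224, 221 and 237 in MCF10Ca1a. The lines did not overlap. It was 1.57-fold lower in MCF10AT1 (log2 fold change -0.65 ± 0.08 SE, edgeR adjusted p = 6.22e-06) and 2.25-fold higher in MCF10Ca1a (1.17 ± 0.08) than in MCF10A, and 3.54-fold higher in MCF10Ca1a than in MCF10AT1.

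NLRC5, the transactivator, was at 10.9, 10.4 and 9.93 CPM in MCF10A, 5.83, 5.87 and 6.70 in MCF10AT1, compared with 11.8, 13.4 and 13.9 in MCF10Ca1a. Again MCF10AT1 was low and MCF10Ca1a high, with no overlap. The fall in MCF10AT1 was 1.70-fold (log2 fold change -0.76 ± 0.08 SE), and the rise in MCF10Ca1a was 1.26-fold over MCF10A (0.33 ± 0.08, edgeR adjusted p = 0.00242). That rise was larger on log2(TPM + 0.1), at 0.69. The mean level of the protein-coding transcript NLRC5-201 was lowest in MCF10Ca1a, as given below with the transcript shares. Replicate 1 of MCF10A had the highest CPM of its line for 7 of the 9 genes and the lowest for B2M.

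Levels of different genes were compared in TPM. In MCF10A the order was B2M (1975 TPM), HLA-C (190), HLA-B (136), HLA-E (60.6), TAPBP (43.9), TAP2 (35.8), TAP1 (20.7), HLA-F (18.1) and NLRC5 (3.38). The library ranges of HLA-E and TAPBP, of TAPBP and TAP2, and of TAP1 and HLA-F overlapped there. In MCF10AT1 HLA-E (53.4 TPM) stood over HLA-B (37.3) and TAP2 (28.1) over TAPBP (24.9), with no overlap between any neighbours in the order. In MCF10Ca1a HLA-B (287) and HLA-C (282) overlapped at the top of the heavy chains, followed by TAPBP (108), HLA-E (99.8), TAP1 (75.4), TAP2 (46.6), HLA-F (13.7) and NLRC5 (5.53). B2M lay at percentile 99.4 to 99.5 of the genes tested in all 3 lines and NLRC5 at 34.5 to 46.0.

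The mix of heavy chain RNA differed between the lines, given here as a description with no test. HLA-B made up 33.6% ± 0.5 (SD, n = 3) of the summed TPM of the 4 heavy chains in MCF10A, 17.7% ± 0.2 in MCF10AT1 and 42.0% ± 0.4 in MCF10Ca1a. HLA-C was the largest share in MCF10A (46.9%) and MCF10AT1 (54.2%) and stood beside HLA-B in MCF10Ca1a (41.3%). HLA-E made up 14.7% to 15.3% of the mix in MCF10A libraries, 25.1% to 25.4% in MCF10AT1, where its own level did not pass the test, and 14.5% to 14.8% in MCF10Ca1a. The summed heavy chain level was 405 ± 52 TPM in MCF10A, 211 ± 13 in MCF10AT1 and 682 ± 6 in MCF10Ca1a.
The level of B2M per summed heavy chain TPM was 3.95, 4.96 and 5.99 in the MCF10A libraries, 6.52, 6.79 and 7.93 in MCF10AT1, compared with 2.84, 2.85 and 2.71 in MCF10Ca1a. The lines did not overlap, and the ratio was above 1 in every library.

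**Figure D3:**
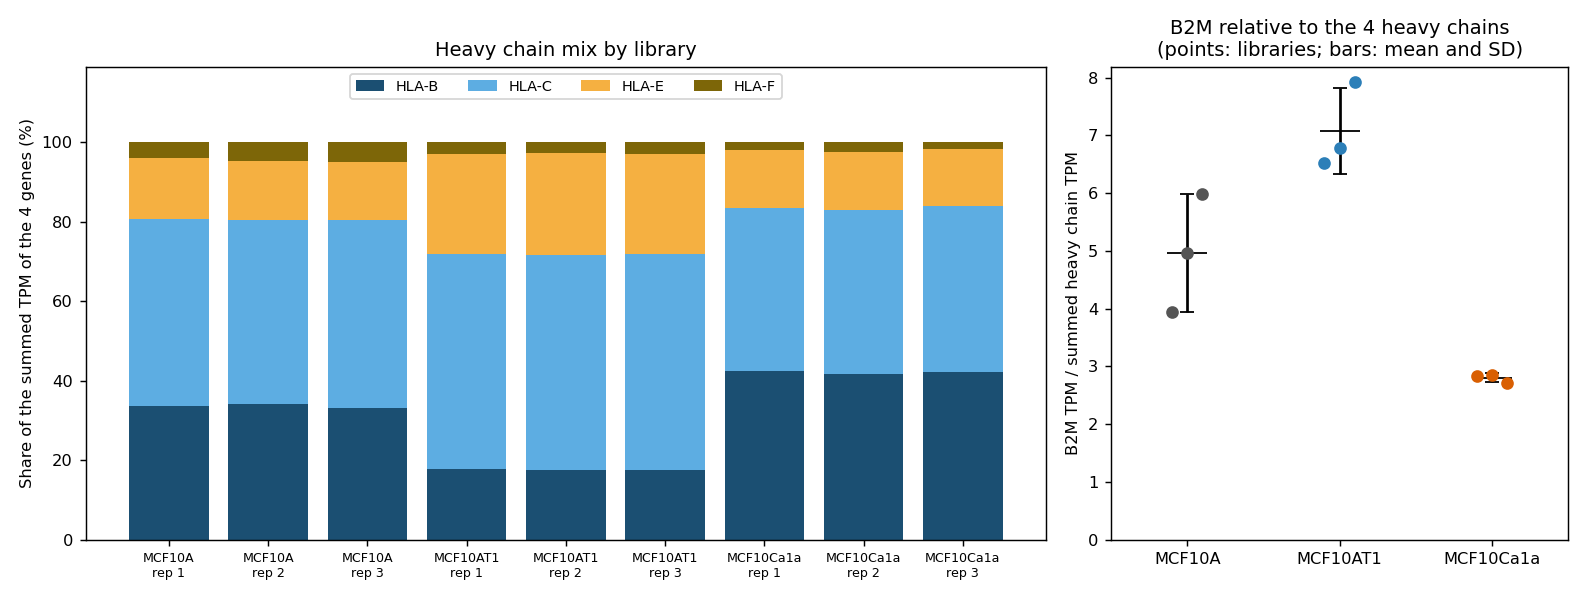
Left, the share of each heavy chain gene in the summed TPM of the 4 (y axis, percent) in each of the 9 libraries; right, B2M TPM per summed heavy chain TPM, with points for libraries and bars for mean and SD. HLA-B takes 17.5% to 17.8% of the mix in MCF10AT1 libraries and 41.6% to 42.4% in MCF10Ca1a, and the B2M ratio is highest in MCF10AT1.

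Shares of transcripts within a gene are described here mainly for TAPBP, TAP2 and NLRC5. Of the 16 transcripts of the 9 genes with a mean share of at least 10% in some line, 1 differed between MCF10AT1 and MCF10A, 7 between MCF10Ca1a and MCF10A and 10 between the derived lines, by limma on log2 ratios of each transcript against the other transcripts of its gene. It called 2.78%, 20.1% and 15.6% of 73795 transcripts in these comparisons, and 6.77%, 32.7% and 26.8% of the 32235 with a share of at least 5%. The 1 transcript in the first comparison was HLA-B-249 (-0.42, limma adjusted p = 0.0363), and that call was lost with 8 of 9 single libraries left out, all but MCF10A replicate 3. The difference there stayed at -0.46 to -0.36 (adjusted p 0.0557 to 0.123). The call was lost on transcript TPM too (-0.07, limma adjusted p = 0.777).
In MCF10A libraries the protein-coding TAPBP-234 made up 66.1%, 62.4% and 67.4% of the TAPBP counts. It made up 63.5%, 63.9% and 63.4% in MCF10AT1 libraries and 88.9%, 89.8% and 92.1% in those of MCF10Ca1a. The last line stood apart from both other lines, by 2.31 ± 0.15 (SE) on the log2 ratio against MCF10A (limma adjusted p = 4.26e-05). The level of this transcript was 15.5 ± 0.3 TPM (SD) in MCF10AT1 and 95.3 ± 4.1 in MCF10Ca1a. The remaining share lay largely in transcripts that GENCODE 29 does not list, which summed to 25.9%, 23.9% and 6.95% of TAPBP counts.

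For TAP2, the share of the protein-coding TAP2-201 was 70.2% ± 3.9 (SD) in MCF10A, 70.4% ± 2.2 in MCF10AT1 and 88.0% ± 1.1 in MCF10Ca1a. TAP2-204, annotated as a processed transcript without an open reading frame, took 9.66% to 18.6% in MCF10A, 10.5% to 13.9% in MCF10AT1 and 3.81% to 4.49% in MCF10Ca1a. TAP2-201 differed between MCF10Ca1a and MCF10A by 1.63 ± 0.15 (SE) on the log2 ratio (limma adjusted p = 0.000311). The level of TAP2-201 was 23.3 TPM in MCF10A, 18.1 in MCF10AT1 and 39.4 in MCF10Ca1a.

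NLRC5 counts were spread over more transcripts and varied more between libraries. In MCF10A libraries NLRC5-201 held 45.3%, 41.6% and 44.5%. It held 56.7%, 62.0% and 56.6% in those of MCF10AT1 and 24.5%, 6.68% and 8.66% in those of MCF10Ca1a, which was low in all 3 (log2 ratio -2.57 ± 0.51 SE against MCF10A, limma adjusted p = 0.0116). The transcript ENST00000688547.1 took 26.4%, 32.1% and 35.0% in MCF10A, 52.9%, 61.2% and 55.7% in MCF10Ca1a, and 0%, 0% and 9.97% in MCF10AT1, where replicate 3 alone held any. With 2 MCF10AT1 libraries at 0, the size of its difference depends on the pseudocount. Between the derived lines the log2 ratio differed by 7.84 ± 1.58 (SE; limma adjusted p = 0.0153; 4.61 to 9.99 over the alternatives), a call lost without MCF10AT1 replicate 1 (adjusted p = 0.0528) or 2 (0.0526). Without MCF10AT1 replicate 3 it also passed in MCF10AT1 against MCF10A (-8.46, limma adjusted p = 3.5e-05, from 0.099 with all libraries) and in MCF10Ca1a against MCF10A (1.53, adjusted p = 0.00646, from 0.549). With a pseudocount of 5 it passed in MCF10AT1 against MCF10A as well (-4.08, limma adjusted p = 0.0333). Mean levels in MCF10A, MCF10AT1 and MCF10Ca1a were 0.736, 0.524 and 0.294 TPM for NLRC5-201. They were 0.521, 0.0323 and 1.31 for ENST00000688547.1, which GENCODE 29 does not list. For the protein-coding NLRC5-215 they were 0.352, 0.303 and 0.882. Transcripts annotated as protein-coding summed to 57.5%, 76.4% and 32.6% of NLRC5 counts. How reads shared by transcripts were divided among them was not tested. HLA-E-201 and B2M-215 held 97.4% to 98.4% and 93.2% to 94.3% of their genes' counts in all libraries, and B2M-215 was called higher in MCF10Ca1a than in MCF10A (log2 ratio 0.17 ± 0.05 SE, limma adjusted p = 0.0373). That call was lost with any library left out other than MCF10AT1 replicate 3 or MCF10Ca1a replicate 2, and on transcript TPM (adjusted p up to 0.104).

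**Figure D4:**
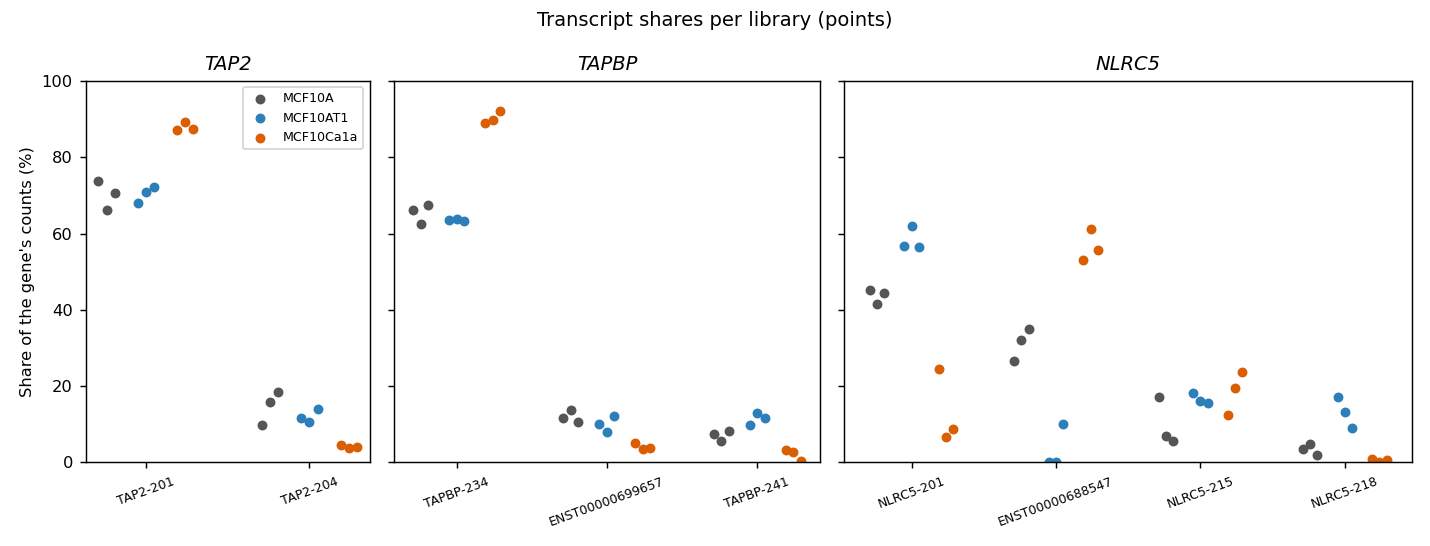
Share of the gene's counts (y axis, percent) held by each transcript of TAP2, TAPBP and NLRC5 with a mean share of at least 10% in some line; each point is 1 library, coloured by line. TAP2-201 and TAPBP-234 are highest in MCF10Ca1a, at 87.2% to 89.2% and 88.9% to 92.1%, and ENST00000688547 is at 0% in 2 MCF10AT1 libraries.

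Other genes of peptide supply and loading were counted from a list of 20, all tested. Beside this and the lists below, 29.8% of all genes tested were higher and 31.8% lower in MCF10AT1. The shares were 39.0% and 41.9% in MCF10Ca1a against MCF10A, and 38.0% and 40.3% between the derived lines. In MCF10AT1 1 rose, 13 fell and 6 did not pass, with a median log2 fold change of -0.27. In MCF10Ca1a against MCF10A 10 rose and 8 fell (median 0.15), and between the derived lines 14 were higher and 3 lower (median 0.42).
PSMB9 and PSMB10, catalytic subunits that replace their constitutive counterparts in the immunoproteasome, rose in MCF10Ca1a over MCF10A by 1.33 and 1.66 on the log2 scale. PSMB9 overlaps TAP1 on the opposite strand, and the value of TAP1 in the same comparison was 1.71. The third such subunit, PSMB8, fell there by 0.34, and its difference between the derived lines was -0.06 (edgeR adjusted p = 0.501), while on log2(TPM + 1) it was 0.20 and passed by limma (adjusted p = 0.00979). In TPM, PSMB9 per PSMB6 was 0.0507 in MCF10A, 0.0427 in MCF10AT1 and 0.154 in MCF10Ca1a, PSMB10 per PSMB7 was 0.120, 0.0622 and 0.184, and PSMB8 per PSMB5 was 0.260, 0.263 and 0.264. So 2 of the 3 subunits gained on their counterparts in MCF10Ca1a and PSMB8 stayed within its library spread. The constitutive proteasome list (14 genes) had 9 genes higher and 2 lower in MCF10AT1, with PSMB7 up by 0.72, and 5 higher and 6 lower in MCF10Ca1a against MCF10A. Of the 14, 11 were called in each of these comparisons, beside 61.6% and 80.9% of all genes.

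ERAP1, which trims peptides in the endoplasmic reticulum, was at 35.9, 17.0 and 40.4 CPM on average in the 3 lines. It fell by 1.07 on the log2 scale in MCF10AT1, and its rise in MCF10Ca1a over MCF10A (0.17) was lost without MCF10A replicate 3 (0.10, edgeR adjusted p = 0.130), without MCF10A replicate 2, without MCF10Ca1a replicate 2, with no filter on low counts, on the authors' scaled and length-scaled counts, and by limma on log2(TPM + 1) with no filter. ERAP2, its relative, fell in both derived lines (-0.68 and -0.41). TAPBPL, which encodes the tapasin-related editor TAPBPR, had mean levels of 4.04, 2.00 and 7.39 CPM and passed in all 3 comparisons. The chaperone genes differed among themselves. CALR fell in both derived lines (-1.20 and -0.91), PDIA3 fell in MCF10AT1 (-0.62) and did not pass in MCF10Ca1a (0.11), where it passed without MCF10A replicate 1 (0.19, edgeR adjusted p = 0.00733) and by limma on log2(TPM + 1). CANX did not pass in either against MCF10A (-0.09 and 0.13). The first of these passed by limma on log2(TPM + 0.1) (-0.25, adjusted p = 0.0482), and the second by DESeq2, after thinning, on log2(TPM + 1) and without MCF10A replicate 1 (0.18, edgeR adjusted p = 0.00673). PSME1 and PSME2, the subunits of the proteasome activator PA28, rose in MCF10Ca1a by 0.50 and 0.47. THOP1, a cytosolic peptidase, fell most there (-1.51).

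Regulators of class I transcription, a list of 16, had 1 higher and 10 lower in MCF10AT1, 3 higher and 8 lower in MCF10Ca1a, and 7 higher and 6 lower between the derived lines. Of the 16, 11 were called in each comparison against MCF10A, beside 61.6% and 80.9% of all genes. RFX5, the DNA-binding subunit of the complex that NLRC5 works with, averaged 58.4 CPM in MCF10A and 50.1 in MCF10Ca1a and was lowest in MCF10AT1 (log2 fold change -0.82), as NLRC5 was. Its fall in MCF10Ca1a (-0.22, edgeR adjusted p = 0.00351) did not pass on log2(TPM + 1) (-0.02) or on the authors' scaled and length-scaled counts. RFXANK was at 29.3, 21.2 and 32.4 CPM and RFXAP at 6.32, 5.92 and 4.32. RFXANK's rise in MCF10Ca1a (0.15) was lost without MCF10A replicate 2 (0.10, adjusted p = 0.148), without MCF10A replicate 3, without MCF10Ca1a replicate 1 or 3, and in the same other settings as for ERAP1.
IRF1, an interferon-induced activator of class I genes, was at 17.3 CPM in MCF10A, 16.8 in MCF10AT1 and 62.3 in MCF10Ca1a. Its pattern was that of TAP1: no call in MCF10AT1 (-0.04, edgeR adjusted p = 0.554) and a rise of 1.85 in MCF10Ca1a. KAT2B, an acetyltransferase, fell in both derived lines (-0.97 and -2.68). Of the NF-Y subunit genes, named after their values were seen, NFYB averaged 36.6, 33.1 and 10.4 CPM and fell in MCF10Ca1a against MCF10A (-1.82, edgeR adjusted p = 2.34e-12). NFYA and NFYC did not pass in that comparison (-0.03 and -0.05, adjusted p = 0.571 and 0.478), and both turned positive on log2(TPM + 1). Of the interferon receptor and signalling list (14 genes), 4 were higher and 9 lower in MCF10AT1, and 6 higher and 4 lower in MCF10Ca1a. In it SOCS3, an inhibitor of cytokine signalling, rose in both derived lines (1.84 and 3.84).

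Interferon-stimulated genes (18 of 20 tested) had 1 higher and 17 lower in MCF10AT1 (median -0.99), and 12 higher and 6 lower in MCF10Ca1a against MCF10A (median 0.44). BST2, for example, averaged 39.8, 3.92 and 81.9 CPM and UBE2L6 15.3, 1.27 and 20.0. The largest fall in MCF10Ca1a was that of OAS2 (log2 fold change -1.38 ± 0.18 SE, -1.52 to -0.53 over the alternatives), which averaged 2.40, 0.759 and 0.921 CPM. The class I-like and natural killer ligand list (15 of 16 tested) was divided, with 5 higher and 9 lower in each of the 2 comparisons against MCF10A. In it MICB, a stress ligand of natural killer cells, averaged 26.1, 32.7 and 3.33 CPM, RAET1G 9.21, 3.17 and 0.710, and ULBP2 5.68, 3.98 and 13.0. HLA class II genes (12, of which 6 were tested) summed to 1.25 to 1.53 CPM in MCF10A, 4.91 to 5.32 in MCF10AT1 and 3.72 to 4.11 in MCF10Ca1a. All 6 tested were higher in MCF10AT1 than in MCF10A (median log2 fold change 1.92), and 4 were higher and 1 lower in MCF10Ca1a, at levels of at most 2.08 CPM per gene.

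**Figure D5:**
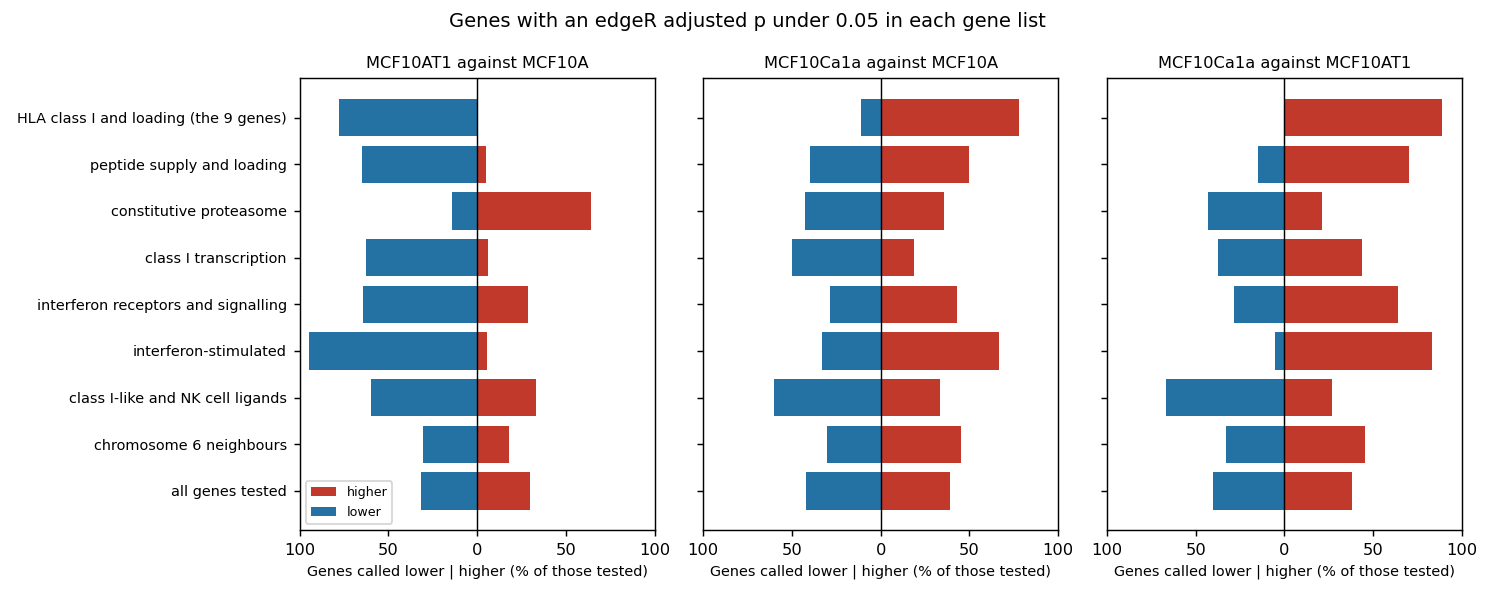
Percent of tested genes called higher (right of 0, red) and lower (left of 0, blue) by edgeR at an adjusted p under 0.05, for each gene list and for all genes, in the 3 comparisons. The bottom bar gives the background; in MCF10AT1 against MCF10A 77.8% of the 9 class I genes and 94.4% of the interferon-stimulated genes are called lower, beside 31.8% of all genes.

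Of the 9 genes, 7 lie on chromosome 6, between HLA-F and TAPBP, with B2M on chromosome 15 and NLRC5 on chromosome 16 (GENCODE 29, GRCh38). HLA-F spans chr6:29722775-29738528, HLA-E chr6:30489467-30494205, HLA-C chr6:31268749-31272130, TAP2 chr6:32821833-32838780, TAP1 chr6:32845209-32853978 and TAPBP chr6:33299694-33314387. B2M spans chr15:44711487-44718877 and NLRC5 chr16:56989485-57083531. The annotated HLA-B gene runs from 31269491 to 31357188, through HLA-C, while its main transcript HLA-B-249 spans 31353872 to 31357187.
Among the 95 tested protein-coding neighbours on chromosome 6 that are in none of the lists, 17 were higher and 29 lower in MCF10AT1 (17.9% and 30.5%), with a median log2 fold change of -0.09. In MCF10Ca1a against MCF10A 45.3% were higher and 30.5% lower (median 0.11), beside 39.0% and 41.9% of all genes. The largest fall in MCF10AT1 among neighbours with more than a trace of RNA was in CFB, a complement factor gene, from 17.0 to 3.01 CPM. The other neighbours with the largest changes (LTB, TRIM15, TNXB, LY6G5C, CDSN, C2, TRIM31 and NOTCH4) reached at most 4.33 CPM in any line. Of 24 tested neighbours of B2M, 9 were higher and 6 lower in MCF10AT1 (37.5% and 25.0%). Of 29 neighbours of NLRC5, 8 were higher and 11 lower (27.6% and 37.9%), beside 29.8% and 31.8% of all genes.

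Likeness of pattern was measured as the root mean square distance between centred log2 CPM over the 9 libraries. Among the genes nearest to HLA-B were CA9, a carbonic anhydrase (0.11), and ADAM21 (0.13). LMAN1, a cargo receptor of the endoplasmic reticulum (0.06), DDAH1 (0.07) and MOGS, a glucosidase that trims N-glycans (0.07), were nearest to TAP1. Nearest to NLRC5 were CRTC2 (0.08), MPND (0.08) and BRPF3 (0.08), and nearest to B2M were PTRHD1, CLK4 and ZDHHC17 (0.04 to 0.08). The 9 genes themselves were left out of these lists. With them included, the nearest of the 9 to HLA-B was TAPBP, at rank 158 of 17909 genes. The nearest of the 9 to TAP1 was TAPBP (rank 793), to NLRC5 HLA-C (rank 50) and to B2M TAP2 (rank 3437). Within the 9 the closest pair by this measure was HLA-E and TAP2 (0.12). The log2 CPM of HLA-B had an SD of 1.15 over the 9 libraries, TAP1 0.85, TAPBP 0.81, HLA-F 0.61, NLRC5 0.49, HLA-C 0.44, HLA-E 0.32, TAP2 0.25 and B2M 0.16.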

How the data were processed

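RNA of MCF10A, MCF10AT1 and MCF10Ca1a (3 libraries each, stranded poly-A kit per the labels) was quantified with Salmon on hg38, per the submitters' processing notes. The annotation is not given in the sources used here. The authors deposited estimated counts and TPM per gene and per transcript, with further scaled and length-scaled gene counts. The estimated counts were rounded and tested with edgeR 4.0.16 (R 4.3.3, quasi-likelihood, TMM, filterByExpr with minimum count 10 and total 15, all 9 libraries in 1 fit, Benjamini-Hochberg over 17910 genes at 0.05). Standard errors come from the fold change and its F. Transcript shares were tested with limma 3.58.1, pseudocount 0.5. Both scripts were tested on simulated data. DESeq2 1.42.0, TPM with limma and other settings were alternatives. Counts of 3 or fewer were taken as a floor, which covers counting error only.

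Positions came from GENCODE 29 on GRCh38 by unversioned identifier (92.9% of 62666 genes matched). The named genes were the 9 class I genes, 16 fixed partners (such as PSMB8, ERAP1 and IRF1) and, per list and comparison, the largest rise and fall among called genes with a mean of at least 100 counts, with the nearest genes by pattern and the 2 extreme neighbours each way. The genes and lists were chosen with earlier results of these data known. Some genes of the lists and of the nearest genes by pattern are not reported here.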

Additional observations from a re-analysis of the deposited data

How the results depend on the processing

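The calls of the 9 genes changed little. In MCF10AT1 against MCF10A, 6 to 7 fell over the alternatives (DESeq2, size factors, no filter, scaled and length-scaled counts, thinning to the smallest library, the lines compared alone, TPM and each library left out) and 0 rose. In MCF10Ca1a against MCF10A, 7 rose in every one of them, and the number that fell was 2 with no filter on low counts and with length-scaled counts, and 1 to 2 as libraries were left out, B2M being the second. Over 540 values of the 9 genes, 6 changed sign, all near 0 and in MCF10AT1 against MCF10A: HLA-E ran from -0.10 to 0.032 and TAP1 from -0.033 to 0.15 as libraries were left out, and TAP1 was -0.049 on log2(TPM + 1), with or without the filter, and -0.050 on log2(TPM + 0.1). Likewise PSME1 ran from -0.12 to 0.023 and IRF1 from -0.065 to 0.0071, IRF1 being 0.015 with length-scaled and 0.014 with scaled counts. In MCF10Ca1a against MCF10A, NFYA was 0.0063 with DESeq2 size factors, 0.0064 by DESeq2, 0.0080 with scaled counts, 0.020 after thinning and 0.16 on log2(TPM + 1), with or without the filter, and on log2(TPM + 0.1), and NFYC ran from -0.097 to 0.0024 as libraries were left out and was 0.10 on each of the same TPM scales. PSMB8 between the derived lines was 0.20 on log2(TPM + 1) and 0.21 on log2(TPM + 0.1). The cause was not tested.

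On log2(TPM + 1) the median of all genes was -0.07, 0.06 and 0.13 in the 3 comparisons and on log2(TPM + 0.1) it was -0.11, 0.10 and 0.21. The calls over all genes became 3447 higher and 6086 lower in MCF10AT1 against MCF10A (5335 and 5690 on counts), and 8203 and 5104 between the derived lines (6808 and 7226).

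The count of transcripts called in MCF10AT1 against MCF10A was 3 with a pseudocount of 5, 0 with transcripts of at least a 5% share, 0 with the replicate block, 0 on transcript TPM, and 0 to 1 with a library left out. Differences near 0 that changed sign as libraries were left out ran from -0.24 to 0.032 (HLA-E-201), -0.0073 to 0.31 (HLA-F-217), -0.11 to 0.11 (HLA-F-222, 0.049 with a pseudocount of 5), -0.044 to 0.014 (B2M-215) and -0.13 to 0.13 (TAP2-201, -0.043 on transcript TPM) in MCF10AT1 against MCF10A. They ran from -0.065 to 0.20 for HLA-E-201 in MCF10Ca1a against MCF10A. Between the derived lines they ran from -0.044 to 0.059 (HLA-B-249, -0.26 on transcript TPM), -0.097 to 0.061 (TAP1-201) and -0.11 to 0.47 (NLRC5-215, -0.25 on transcript TPM).

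With CPM in place of TPM, which is not per length, the heavy chain mix in MCF10A, MCF10AT1 and MCF10Ca1a was 32.0%, 16.2% and 39.8% for HLA-B, 41.5%, 45.1% and 36.1% for HLA-C, 23.5%, 37.0% and 22.8% for HLA-E and 2.96%, 1.80% and 1.24% for HLA-F.

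Replicate numbers did not pair the libraries: over 9 same-numbered pairs the correlation of deviations ran from -0.06 to 0.05. With the replicate block the calls of the 9 genes were 7, 8 and 8, as without it, and calls of shares of HLA-B-249, B2M-215 and TAPBP-241 were lost. Depth limits the transcripts of NLRC5, with 389 to 702 counts per library, and of HLA-F, with 323 to 1100.0.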
